A study of Zea mays with 4 samples.

Results

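The genes described here are those of sucrose breakdown and transport in maize: the sucrose synthase genes sus1 (LOC542247), sus2 (LOC542091) and sh1 (LOC542365), the sucrose transporter gene sut1 (LOC541615), and the invertase genes ivr1, ivr2 (LOC542324) and incw1 (LOC542314). Every probe set that the platform annotation assigns to 1 of these 7 symbols, directly or as a synonym, was taken, which gave 8 of 17621 non-control probe sets. They stand for 6 of the 7 genes and of the 1108 genes named on the array, since no probe set carried the symbol ivr1 and that gene is not analysed here. The gene sh1 had 3 probe sets and each of the other 5 genes had 1. Total RNA of the inbred lines F98902 and Cm489 had been amplified and biotin-labelled for 4 Affymetrix maize arrays, 2 per line, in a series on the diversity of the maize cell wall. Both lines carry the same description in every other label: aerial material, potting soil, a 16/8 light cycle with natural light, a humidity of 50% and the stage of flower development. The sample titles hold a code that differs between all 4 samples, and its meaning is not given. The labels do not spell out the organ or the plants behind each sample, so p-values measure only the spread between these samples, which may be technical. The amount of RNA given for F98902 was 102 ug (replicate 1) and 52 ug (replicate 2), and for Cm489 100 ug (replicate 2). No amount is listed for Cm489 replicate 1, because its extraction note names the other Cm489 sample.

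Sucrose made in leaves moves through the phloem and is split in the tissues that use it. Sucrose synthase splits it with UDP into UDP-glucose, a substrate of cellulose synthesis, and fructose. The invertases of the vacuole and of the cell wall split it irreversibly into glucose and fructose. SUT1-type carriers move sucrose into cells together with protons, as in phloem loading.

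All levels are deposited log2 signals of a probe set on an array, and levels were compared only within a probe set. A probe set was tested when it reached log2 4 on at least 2 of the 4 arrays, because GCRMA, the authors' summary method, leaves probe sets without specific signal near 2. Of the 8 probe sets 6 passed this filter, 1 for each of the 6 genes. The other 2, both of sh1, lay at that floor on every array, at 1.92 to 1.96 and at 2.32 to 2.39, and give no level. Differences are F98902 minus Cm489 on the log2 scale, from a limma model fitted to all 11242 tested probe sets with Benjamini-Hochberg adjustment. An adjusted p under 0.05 counted as a call. With 2 arrays on each side, the smallest two-sided p of an exact permutation test is 0.333.

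None of the 6 tested genes passed the test between the lines, against 1.78% of all tested probe sets. At an unadjusted limma p under 0.05 the count was 1 of 6, the gene being sus2, against 10.5% of all tested probe sets. This does not show that the lines have equal levels, as the intervals below are wide. The sucrose genes fell into 3 kinds of pattern. For sus2 and sut1 both F98902 arrays lay below both Cm489 arrays, as for 20.0% of all tested probe sets. The genes sus1 and sh1 varied little on any array. For sh1 both F98902 arrays lay above by a small margin, as for 18.1% of all tested probe sets. The 2 invertase genes spread widely within each line. In bulk RNA such as this, fewer cells of a type and less RNA per cell cannot be told apart.

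**Figure D1:**
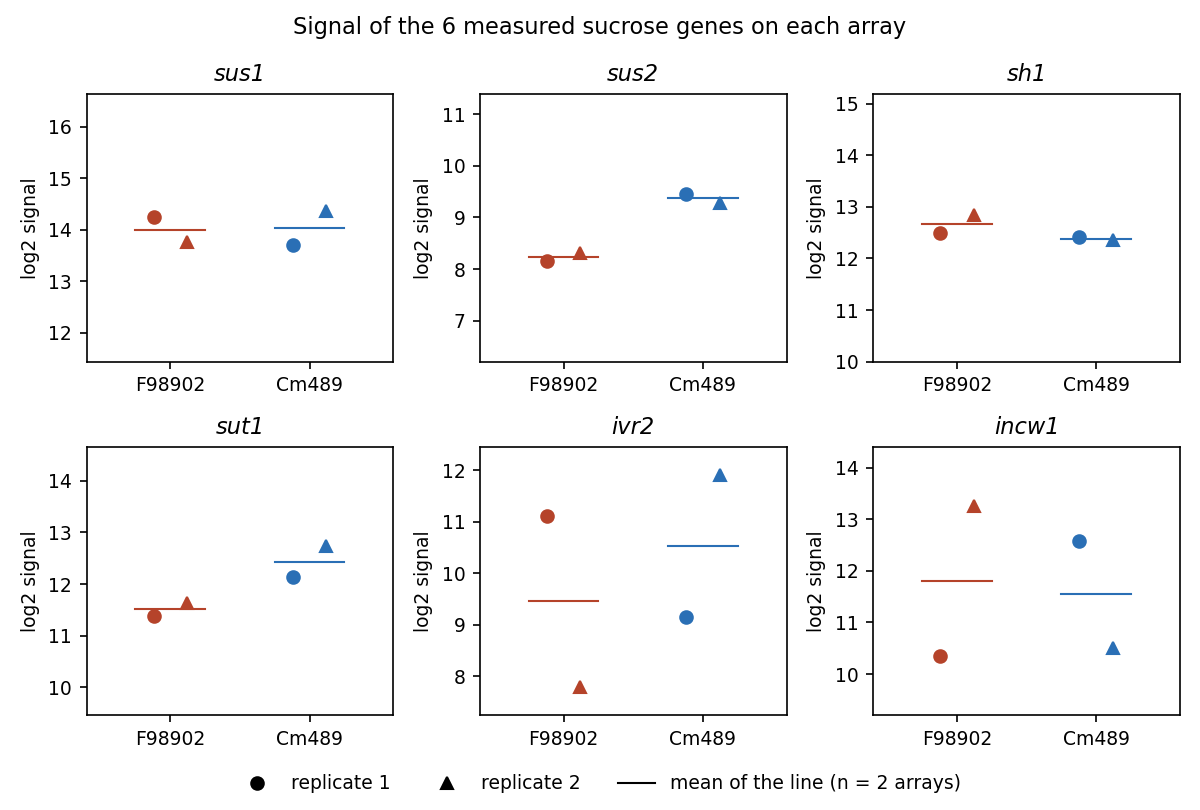
Log2 signal of the 6 tested sucrose genes in F98902 (left, red) and Cm489 (right, blue). Circles are replicate 1, triangles replicate 2 and bars the mean of 2 arrays; each vertical axis has its own position and the same length. The arrays of the lines stay apart for sus2, sut1 and, by a small margin, sh1, while ivr2 and incw1 spread within each line.

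Among the sucrose synthase genes, sus2 had the largest difference between the lines. Its signal was 8.15 and 8.31 in F98902, against 9.46 and 9.28 in Cm489. Both F98902 arrays were lower than both Cm489 arrays, and the arrays of each line lay close together. The difference was -1.14 (SE 0.40, 95% interval -2.24 to -0.04, limma adjusted p = 0.461), a 2.20-fold lower mean signal in F98902. It ran from -1.22 to -1.05 when each array was left out in turn.

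The gene sus1, for a sucrose synthase found in many organs, was bright on all arrays. It was at 14.24 and 13.76 in F98902 and at 13.71 and 14.37 in Cm489. The lines overlapped, with the higher array in each reaching about the same level. The difference was -0.04 (SE 0.48, 95% interval -1.37 to 1.30, limma adjusted p = 0.993). Its sign was not stable: it was 0.20 without F98902 replicate 2 and 0.29 without Cm489 replicate 2.

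The gene sh1, shrunken1, encodes the sucrose synthase best known from the endosperm, where its loss collapses the kernel. Its probe set with signal gave 12.49 and 12.83 in F98902, against 12.42 and 12.35 in Cm489. F98902 was higher on both arrays, by a margin smaller than the spread between the F98902 arrays. The difference was 0.28 (SE 0.41, 95% interval -0.85 to 1.41, limma adjusted p = 0.917), and it was 0.11 without F98902 replicate 2 and 0.45 without F98902 replicate 1. Over the 4 arrays sh1 spanned 0.48, less than the median span of 1.46 over all tested probe sets. The 2 floor probe sets carry the same gene name as the bright one but gave no signal, so the 3 did not give the same reading.

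The sucrose transporter gene sut1 had 11.39 and 11.64 in F98902, against 12.13 and 12.73 in Cm489. Both F98902 arrays were lower, and the Cm489 arrays lay farther apart than those of F98902. The difference was -0.92 (SE 0.45, 95% interval -2.17 to 0.34, limma adjusted p = 0.669), a 1.89-fold lower mean signal in F98902. By the array maker's naming the sut1 probe set, which ends in _s_at, shares probes with other transcripts, so signal from related carriers may be included.

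Arrays of the lines that do not overlap are common in these data. F98902 lay below Cm489 on both arrays in 2 of the 6 genes, against 20.0% of all tested probe sets, and above it in 1, against 18.1%. The median difference of the 6 genes was -0.48, against -0.02 over all tested probe sets. The 5' minus 3' signal of the EF1-alpha control transcript, a sign of RNA integrity, was -1.88 and -2.97 in F98902 and -3.42 and -4.44 in Cm489, and so also separated the lines. Those of cyclophilin, GAPDH and ubiquitin overlapped. The part of RNA integrity in the line differences of sus2 and sut1 was not tested, and a difference in transcript level and one in the sequence under the probes cannot be told apart here.

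**Figure D2:**
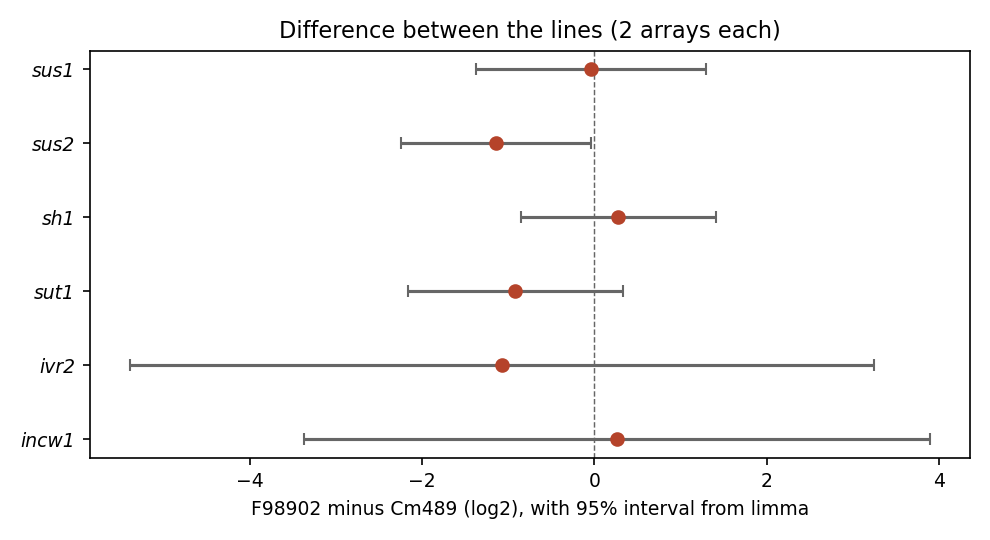
Difference between the lines for the 6 tested genes, F98902 minus Cm489 on the log2 scale; points are differences of means of 2 arrays and bars the 95% intervals from limma. The interval of sus2 ends at -0.04, the others include 0, and those of ivr2 and incw1 are the widest.

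The invertase genes gave the widest spread, and it lay within the lines. The gene ivr2, for a soluble acid invertase of the vacuole, was at 11.12 and 7.80 in F98902 and at 9.16 and 11.90 in Cm489. It was high on replicate 1 of F98902 and replicate 2 of Cm489 and low on the other two arrays. Replicate 2 minus replicate 1 was -3.32 in F98902 and 2.74 in Cm489, differences of 9.96-fold and 6.69-fold in signal.

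The gene incw1, for an invertase bound to the cell wall, ran the other way. Its signal was 10.36 and 13.25 in F98902 and 12.59 and 10.50 in Cm489. It was thus high on the arrays where ivr2 was low, and low where ivr2 was high. Replicate 2 minus replicate 1 was 2.89 in F98902 and -2.09 in Cm489, or 7.42-fold and 4.26-fold.

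Between the lines neither invertase gene passed. The difference in ivr2 was -1.07 (SE 1.56, 95% interval -5.39 to 3.25, limma adjusted p = 0.916) and that in incw1 was 0.26 (SE 1.31, 95% interval -3.37 to 3.89, limma adjusted p = 0.983). Which array was used set the sign in both genes. Without F98902 replicate 2 and without Cm489 replicate 2, ivr2 was at 0.59 and 0.30 and incw1 at -1.18 and -0.78. Without F98902 replicate 1, ivr2 was at -2.73 and incw1 at 1.71.

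A within-line difference of at least 2 in both lines, in opposite directions, occurred in 2 of the 6 genes and in 4.83% of all tested probe sets. The direction of ivr2 had 3.21% of probe sets and that of incw1 1.62%. With 1 array on each side these differences have no replicate check. The median absolute within-line difference over all tested probe sets was 0.73 in F98902 and 0.63 in Cm489. The largest among sus1, sus2, sh1 and sut1 was 0.65, for sus1 in Cm489, and sus1 had the sign of ivr2 in both lines (-0.48 in F98902). For sus2 the differences were 0.16 and -0.17, for sh1 0.34 and -0.06, and for sut1 0.25 and 0.60, in F98902 and Cm489.

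**Figure D3:**
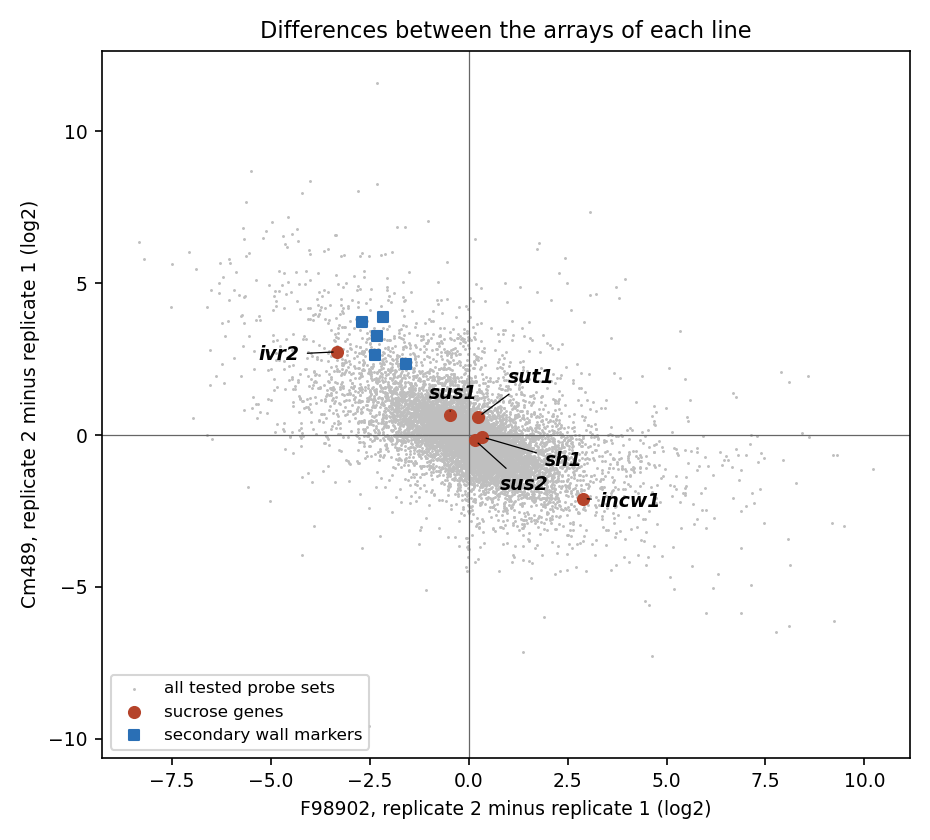
Replicate 2 minus replicate 1 in F98902 (horizontal axis) and in Cm489 (vertical axis), in log2 units, for all tested probe sets (grey), the 6 sucrose genes (red) and 5 secondary wall markers (blue). ivr2 lies at -3.32 and 2.74 beside the secondary wall markers, incw1 at 2.89 and -2.09 in the opposite quadrant, and the other 4 genes near the centre.

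Among the marker lists, those of the secondary wall and of the C4 leaf moved over the same arrays. The summed signal of 5 secondary wall genes (cesa10, cesa11, cesa12, bk2 and bm1), on the log2 scale, was 15.46 and 13.19 in F98902 and 12.84 and 15.89 in Cm489. It was high where ivr2 was high, and all 5 genes had the direction of ivr2 within both lines. The summed signal of 6 C4 leaf genes was 13.60 and 12.30 in F98902 and 11.37 and 13.34 in Cm489. None of the 6 was at the floor on all arrays. However, pep1 was not tested, being at 2.79 and 2.37 in F98902 and at 2.86 and 6.01 in Cm489. The brightest gene on average, rbcs1, was at 12.79 and 10.60 in F98902 and at 10.59 and 12.95 in Cm489. In this list 4 of the 5 tested genes had the direction of ivr2. The gene found for pdk1 (LOC541677) was matched by symbol alone, and without it the count was 3 of 4.

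The 10 meristem and cell division genes summed to 11.82 and 11.57 in F98902 and 12.12 and 12.02 in Cm489, with the cyclin genes cyc1, cyc2 and cyc3 at the floor. Of the 6 tested, 3 had the direction of incw1 and 1 that of ivr2. Among 5 pollen and anther genes 4 were at the floor on all arrays, including all 3 profilin genes, and the summed level was 11.16 and 11.79 in F98902 and 10.57 and 11.22 in Cm489. Among 8 kernel genes 6 were at the floor, and the sum was 8.95 and 11.04 in F98902 and 9.60 and 10.22 in Cm489. That sum holds a haemoglobin gene (LOC541815) that the symbol glb1 also finds. Without it the kernel sum was 8.25 and 6.87 in F98902 and 7.05 and 9.63 in Cm489, which has the direction of ivr2. The 1 gene of it above the floor, zp27, was at 8.10 and 6.45 in F98902 and 6.68 and 9.58 in Cm489. Over all tested probe sets 32.4% had the direction of ivr2 within the lines and 40.9% that of incw1.

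RNA integrity moved with these genes in part. Replicate 2 minus replicate 1 of the 5' minus 3' signal was -0.82 in F98902 and 0.59 in Cm489 for cyclophilin and -1.63 and 0.83 for GAPDH, the direction of ivr2. It was 0.24 and 0.05 for ubiquitin and -1.10 and -1.02 for EF1-alpha. The part of the marker lists and of RNA integrity in the invertase pattern was not tested.

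**Figure D4:**
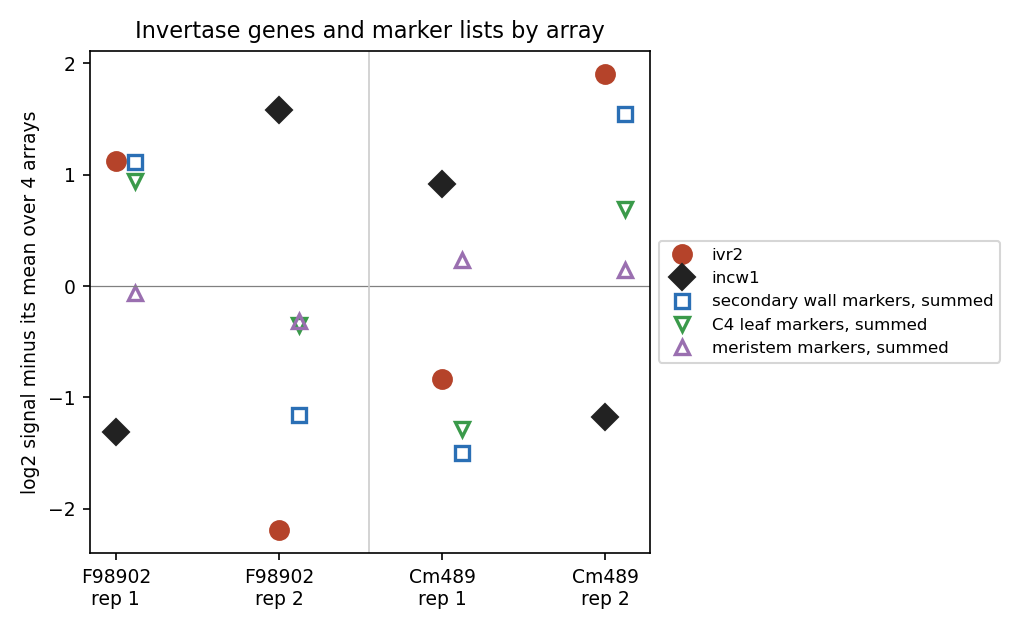
Log2 signal on each array minus its mean over 4 arrays, for ivr2 and incw1 (filled) and for the summed signal of 3 marker lists (open). ivr2 and the secondary wall markers are above their mean on F98902 replicate 1 and Cm489 replicate 2, and incw1 is above its mean on the other two arrays.

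Few other genes of sucrose synthesis, cleavage and transport could be read. Of 39 further symbols 6 genes were found and 4 tested, and 0 passed (0 at an unadjusted limma p under 0.05). The gene sps1, for sucrose phosphate synthase, was at 3.08 and 1.98 in F98902, against 4.26 and 7.96 in Cm489. Both F98902 arrays were below log2 4 and 1 Cm489 array was well above it. F98902 therefore has only a bound, and the probe set passed the filter on dim values through the Cm489 arrays alone. Set against log2 4, the level was at least 2.11 lower in F98902 on the log2 scale. This bound became 3.96 with Cm489 replicate 1 left out and 0.26 with Cm489 replicate 2 left out. The bound itself was not tested, and the limma adjusted p of the deposited values (0.530) rests on F98902 signals below log2 4.

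The sucrose phosphate phosphatase genes act after sps1. spp2 was at 2.19 and 6.44 in F98902 and at 8.54 and 5.50 in Cm489, with replicate 1 of F98902 at the floor and the lines overlapping. No size is given for its difference, which did not pass (limma adjusted p = 0.804). spp1 was at 10.25 and 8.51 in F98902 and 9.96 and 10.27 in Cm489, low on F98902 replicate 2 alone. The sucrose export gene sxd1, for tocopherol cyclase, was at 7.35 and 5.71 in F98902 and at 6.06 and 6.42 in Cm489, also overlapping. The cell wall invertase genes mn1, known from the base of the kernel, and incw3 lay at the floor, below 2.1 on all arrays.

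Products of sucrose cleavage enter metabolism through fructokinase and hexose phosphate isomerase. Of 28 symbols 3 genes were found and tested, 0 passed (0 at an unadjusted limma p under 0.05) and the median difference was -0.30. The fructokinase gene frk2 was at 12.89 and 13.19 in F98902, against 13.57 and 13.72 in Cm489. The isomerase gene phi1 was at 12.08 and 12.07 in F98902, against 11.34 and 11.58 in Cm489. Neither overlapped between the lines, and they ran in opposite directions, with differences of -0.61 (SE 0.41, limma adjusted p = 0.793) and 0.62 (SE 0.40, limma adjusted p = 0.781). Thus 1 of the 3 genes lay below and 1 above in F98902, against 20.0% and 18.1% of all tested probe sets. The fructokinase gene frk1 overlapped, at 11.98 and 12.36 in F98902 and 12.90 and 12.04 in Cm489.

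In starch synthesis 10 of 15 genes found were tested and 0 passed (0 at an unadjusted limma p under 0.05), with a median difference of -0.07. The starch synthase gene ss1 was at 8.17 and 7.97 in F98902, against 9.01 and 9.03 in Cm489, and did not overlap (difference -0.95, SE 0.40, limma adjusted p = 0.564). agp2 (LOC542072), for a subunit of ADP-glucose pyrophosphorylase, was at 11.13 and 9.38 in F98902 and at 8.86 and 9.09 in Cm489. It did not overlap either, with F98902 higher. F98902 lay below Cm489 without overlap in 1 of the 10 tested genes and above it in 2. The shares of all tested probe sets were 20.0% and 18.1%. The symbol agp2 also finds LOC542737, which was tested too, at 8.81 and 7.06 in F98902 and at 7.71 and 8.89 in Cm489. The branching enzyme gene ae1 (LOC542238) was dim, at 4.55 and 4.07 in F98902 and at 4.45 and 6.09 in Cm489. Within the lines 9 of the 10 genes had the direction of ivr2, against 32.4% of all tested probe sets.

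Sucrose synthase transcripts are known to respond to oxygen shortage in maize, sh1 among them, so genes of the anaerobic response were set beside them. All 14 genes found were tested and 0 passed (0 at an unadjusted limma p under 0.05), 9 being higher and 5 lower in F98902, with a median difference of 0.19. Within the lines 5 of the 14 genes had the direction of ivr2 and 5 that of incw1. Over all tested probe sets the shares were 32.4% and 40.9%. The haemoglobin gene hb2 was at 9.58 and 8.83 in F98902, against 10.31 and 10.38 in Cm489. The alcohol dehydrogenase gene adh2 was at 10.08 and 10.30 in F98902, against 10.58 and 11.51 in Cm489. Both were lower on each F98902 array. F98902 lay below Cm489 without overlap in these 2 of the 14 genes and above it in 3. The shares of all tested probe sets were 20.0% and 18.1%. The cytosolic glyceraldehyde phosphate dehydrogenase gene gpc3 was low on Cm489 replicate 1 alone on its brightest probe set. That probe set was at 12.15 and 11.68 in F98902 and 9.83 and 11.75 in Cm489. The other 2 tested probe sets of gpc3 disagreed with it. They were at 8.88 and 6.63 in F98902 against 8.05 and 9.69 in Cm489, and at 8.22 and 5.73 in F98902 against 8.16 and 10.16 in Cm489, both lowest on F98902 replicate 2.

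Cellulose synthases use UDP-glucose, which sucrose synthase can supply. All 10 genes found were tested, 0 passed and 1, cesa2, had an unadjusted limma p under 0.05. The median difference was -0.63, with 7 genes lower and 3 higher in F98902. cesa2 was at 11.77 and 11.02 in F98902, against 12.73 and 13.39 in Cm489, and cesa8 at 11.53 and 10.38, against 11.63 and 12.71. Both were lower in F98902 without overlap, which held for 2 of the 10 genes, against 20.0% of all tested probe sets. cesa3 overlapped, at 9.95 and 8.04 in F98902 and 9.45 and 10.91 in Cm489. Within the lines 9 of the 10 genes had the direction of ivr2, against 32.4% of all tested probe sets. Of these 10 genes 4 (cesa10, cesa11, cesa12 and bk2) are secondary wall markers counted above, and 5 of the other 6 had that direction.

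Over all pathway lists 41 of 48 genes were tested, with 23 lower and 18 higher in F98902 and a median of -0.12. F98902 lay below Cm489 without overlap in 7 of the 41 and above it in 6, against 20.0% and 18.1% of all tested probe sets.

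**Figure D5:**
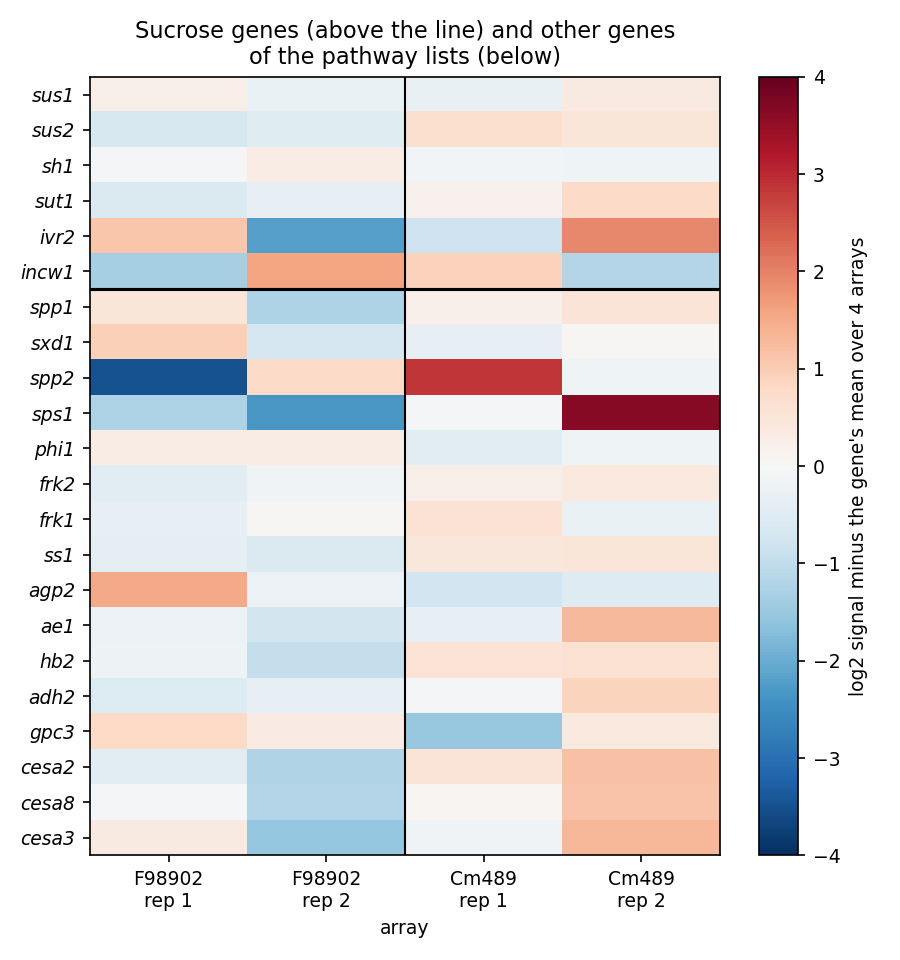
Log2 signal minus the gene's mean over 4 arrays (colour, red above and blue below the mean) for the 6 sucrose genes, above the line, and 16 tested genes named from the pathway lists, below it. sus2 and sut1 are blue on both F98902 arrays, ivr2 and incw1 change colour within each line, and sps1 is darkest red on Cm489 replicate 2.

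The named genes with the most similar profiles were found by the root mean square distance between log2 profiles over the 4 arrays, each centred on its mean, among 805 other named genes. For sus2 they were PIP2-4 (0.137), a plasma membrane aquaporin gene, cop2 (0.138) and mir3 (0.146). For sut1 they were adh2 (0.123), PLD1 (0.142), for a phospholipase D, and LOC542159 (0.143). For sus1 the nearest were yptm3 (0.0329), PAL1 (0.0572), for phenylalanine ammonia-lyase, and ABP3 (0.0722). For sh1 they were the aldolase gene ald1 (0.0771), the response regulator gene RR10 (0.0793) and cdpk1 (0.0810), for a calcium-dependent protein kinase.

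The invertase genes had no neighbour as close. The nearest to ivr2 were GRF5 (0.285), Lsi1 (0.470) and dxs1 (0.486), for a deoxyxylulose phosphate synthase. GRF5 had 7.66 and 4.79 in F98902 and 5.45 and 8.20 in Cm489. The nearest to incw1 were dps1 (0.276), LON2 (0.337) and the expansin gene expA4 (0.347), of which dps1 had 7.25 and 9.58 in F98902 and 9.66 and 7.24 in Cm489. Among the sucrose genes sus2 and sut1 were the nearest pair (0.297) and ivr2 and incw1 the farthest (2.86). Distances grow with the spread of a profile, and 4 arrays can hold few patterns, so these neighbours are a description only.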

How the data were processed

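Transcript levels were measured on 4 arrays. The deposited table holds log2 signals, 1 per probe set and array, made by the authors with GCRMA (background correction, normalization between arrays and summary of probes), per the submitters' processing notes. Which version and settings were used is not given in the sources used here, and log base 2 was inferred from the values' range. Of 17734 probe sets 113 were controls, left out of the tests. Names came from GEO's platform annotation, updated through Entrez gene numbers to RefSeq names of assembly Zm-B73-REFERENCE-NAM-5.0: 1452 probe sets had 1 gene, 1 had several, 16168 were unnamed here, and 1377 matched a RefSeq gene. No coordinates or sequences are given.

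The model used lmFit and eBayes of limma 3.58.1 (constant prior, R 4.3.3), with line as the only term, two-sided, and was tested on simulated data. The replicate number was not used as a block, since the labels state no pairing. The members and lists were chosen with earlier results of these data known. For list genes with several probe sets the brightest on average was used. Lists matched symbols or synonyms, so that a few genes match by symbol alone (LOC541815, a haemoglobin gene, for glb1 of the kernel list, and LOC541677 for pdk1 of the C4 list). In the starch list agp2 also finds LOC542737, and ae1 also finds LOC541992, which lay at the floor. No trehalose gene was found. Named were all members, all found genes of the first pathway list, up to 3 genes with the smallest adjusted p of each other pathway list, and the 3 nearest profiles per member. The alternatives tried were the dim filter left out or set at log2 6, a robust prior that depends on intensity, no variance moderation, equal medians, quantile normalization, values under log2 4 raised to 4, the replicate block, each array left out, a threshold of 0.01 and all probe sets of each gene. The crossed block, and the marker and cellulose lists without symbol-only or shared genes, were chosen after seeing the data. The number of arrays limits the precision.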

Additional observations from a re-analysis of the deposited data

How the results depend on the processing

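None of the 6 sucrose genes, and none of the 41 pathway genes, passed under any alternative run (limma; with 1 and 1 at an unadjusted p under 0.05 in the reported fit). This includes the replicate block, which changed no call for these genes, and the crossed pairing. Nothing in the labels makes the replicate numbers pairs. Over tested probe sets the within-line differences of F98902 and Cm489 correlated at -0.558. Over its alternatives the adjusted p of sus2 ran from 0.186 (no filter on dim probe sets) to 0.9998 (replicate block). Of 72 alternative values of the 6 genes' differences 65 kept their direction. That of sus1 turned to 0.0172 with equal medians, and with each array left out in turn the differences lay between -0.36 and 0.29 (sus1), -2.73 to 0.59 (ivr2), -1.18 to 1.71 (incw1), -1.61 to 0.13 (spp1), -0.53 to 1.11 (sxd1) and -0.73 to 0.13 (frk1). The within-line differences of the 6 genes kept their sign under both scalings and with values raised to log2 4.

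The count of 200 probe sets past the threshold was 79 with no filter on dim probe sets, 8 with a prior both robust and dependent on intensity, 9 without variance moderation, 115 with values under log2 4 raised to 4, 0 at an adjusted p under 0.01 (1183 at an unadjusted p under 0.05), 0 with the replicate block (776 unadjusted), 284 with the crossed block and 0 to 0 with each array left out, where limma takes the lone array to vary like the other line. The cause was not tested. A probe set at the floor gives no level, which limits sps1, spp2, mn1, incw3 and 2 probe sets of sh1.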
